A study of Homo sapiens with 9 samples.

Results

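BCHE, DDC, CBLN2, CHGA, ENO2, SYP, SCG2, NTS and HES6, genes known from neurons and neuroendocrine cells, were followed through libraries of poly(A) RNA from prostate cancer cells. They are 9 of the 28216 genes in the count table and were found there by symbol. BCHE, DDC and CBLN2 were picked because they are among the largest falls with androgen, and HES6 because it is among the largest falls in PC3 cells against LNCaP cells. For those 4 genes all values are therefore given as a description, with no test. The other 5 genes were taken for what they are known to do, and they are tested where their counts allow.

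The series holds 9 libraries of established human prostate cancer cell lines, in 3 groups of 3, and all cells are labelled epithelial and wild type. PC3 cells, a line from a bone metastasis, were untreated and grown in F12K medium with 10% FBS. LNCaP cells (clone FCG), a line from a lymph node metastasis that responds to androgen, first spent 24 h in RPMI without phenol red and with 10% charcoal-stripped FBS, and were then given either 10 nM androgen or vehicle (0.01% ethanol) for 48 h. The labels call the androgen dihydrotestosterone (DHT) and the paper calls it R1881, so it is named androgen here. PC3 and LNCaP cells differed in line, medium and serum together, and these cannot be told apart. The labels do not say whether replicates were separate cultures. The paper describes its data in general as coming from independent experiments and has a batch term in its RNA-seq model, without tying single libraries to either. The p-values measure the spread between these libraries, which may be in part technical.

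As background, neuroendocrine cells are scattered through the normal prostate epithelium. They store peptides in dense-core granules built with chromogranins and secretogranins, carry synaptic vesicle proteins such as synaptophysin, and use the neuronal enolase. Prostate adenocarcinoma cells deprived of androgen can take up parts of this program, which is driven by transcription factors such as INSM1 and held down in non-neural cells by the repressor REST.

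The libraries held 17397706 to 25640325 counts on genes, and vehicle-treated LNCaP libraries were the shallowest, with at most 18674795. Levels are given as CPM, the counts relative to the library total, corrected with TMM factors over the 9 libraries, and 3 counts, the upper limit that a count of 0 allows, equal 0.117 to 0.172 CPM before that scaling. Such limits and the intervals of count ratios below cover counting error only. KLK3 and FKBP5, both androgen-induced genes, were higher with androgen in LNCaP cells by 2.89 and 4.90 on the log2 scale, and KLK3 had 2 to 20 counts per PC3 library against 9831 to 88995 per LNCaP library. The epithelial genes KRT8, KRT18, EPCAM and CDH1 were over 3 CPM in every library, whereas 5 leucocyte markers summed to at most 0.798 CPM. The fibroblast list (COL1A1, COL1A2, DCN, LUM and PDGFRB) summed to 33.9 to 43.2 CPM in PC3 cells, 12.8 to 15.3 CPM with androgen and at most 25.0 CPM with vehicle, and only COL1A1 exceeded 3 CPM throughout a group. VIM, CD44, CAV1 and ITGA3, which mark PC3 cells, summed to 3265 to 3811 CPM there, to 14.4 to 32.5 CPM in androgen-treated and to 9.28 to 15.6 CPM in vehicle-treated LNCaP cells. Replicate 1 of either LNCaP group held the most FOXA2 and NTSR1 counts, genes that were high in PC3 cells. The part of such counts in the low LNCaP values below was not tested.

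The stretches upstream of the start sites of the genes that moved most, and of CHGA, are shown with 3 motifs in capitals: CANNTG (the E-box bound by basic helix-loop-helix factors), TATAAA and TGACGTCA (the cAMP response element), each searched on both strands. Sequences were taken from the RefSeq promoter table (GRCh38.p14) for the 250 bases before a start site and are given without the bases that GENCODE 44 places in an exon. The BCHE stretch lies at chr3:165837463-165837673, the DDC stretches at chr7:50565406-50565655 and chr7:50561072-50561321, the CBLN2 stretch at chr18:72544343-72544452, the HES6 stretch at chr2:238240042-238240288 and the CHGA stretch at chr14:92922900-92923149. All are on the minus strand except that of CHGA.
BCHE: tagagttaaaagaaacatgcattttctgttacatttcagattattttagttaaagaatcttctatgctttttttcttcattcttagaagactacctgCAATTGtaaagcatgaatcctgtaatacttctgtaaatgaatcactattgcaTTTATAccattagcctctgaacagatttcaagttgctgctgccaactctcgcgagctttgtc
DDC, upstream start: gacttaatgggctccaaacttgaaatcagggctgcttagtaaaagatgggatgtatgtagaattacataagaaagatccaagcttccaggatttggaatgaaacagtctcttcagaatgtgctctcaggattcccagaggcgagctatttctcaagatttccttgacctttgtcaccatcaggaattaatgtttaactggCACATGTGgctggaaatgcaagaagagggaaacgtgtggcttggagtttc
DDC, downstream start: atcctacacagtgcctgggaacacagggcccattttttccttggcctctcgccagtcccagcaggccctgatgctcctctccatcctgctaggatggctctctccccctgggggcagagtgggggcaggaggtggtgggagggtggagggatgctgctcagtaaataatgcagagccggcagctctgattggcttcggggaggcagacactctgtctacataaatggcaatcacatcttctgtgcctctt
CBLN2: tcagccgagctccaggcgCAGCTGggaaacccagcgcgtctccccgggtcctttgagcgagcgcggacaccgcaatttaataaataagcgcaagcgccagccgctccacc
HES6: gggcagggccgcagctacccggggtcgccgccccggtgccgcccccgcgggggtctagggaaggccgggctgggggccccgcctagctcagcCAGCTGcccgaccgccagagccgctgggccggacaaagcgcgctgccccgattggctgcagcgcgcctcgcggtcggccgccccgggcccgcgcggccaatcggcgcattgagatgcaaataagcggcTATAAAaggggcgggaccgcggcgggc
CHGA: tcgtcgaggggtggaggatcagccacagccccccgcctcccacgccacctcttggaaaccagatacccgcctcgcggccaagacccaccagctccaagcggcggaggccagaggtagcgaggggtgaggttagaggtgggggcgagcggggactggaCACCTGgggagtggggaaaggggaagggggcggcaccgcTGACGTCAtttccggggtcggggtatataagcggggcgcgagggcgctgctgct
DDC has a pair of start sites in that table, and gene counts do not tell which was used. The stretch before the downstream one lies within the DDC gene, outside every annotated exon. The CBLN2 and HES6 stretches also lie within the gene as GENCODE 44 draws it, since other transcripts start farther upstream. In the full 250-base windows CANNTG had 2 matches in BCHE, 2 in CBLN2, 1 in HES6, 1 in CHGA, 2 overlapping ones upstream of the first DDC start and 0 upstream of the other, and 61.8% of all 35116 windows of that length held at least 1. TATAAA had 1 match in BCHE and 1 in HES6 (10.7% of windows), and TGACGTCA had 1 match in CHGA (1.65% of windows). AGAACA, the core of the androgen response element, had 0 matches in each of the 9 windows of the 8 genes with an entry, and 12.4% of all windows held it. No match says only that these letters are not in these windows. SCG2 had no entry.

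BCHE encodes butyrylcholinesterase, which splits choline esters as acetylcholinesterase does, and its gene lies at chr3:165772904-165837462 on the minus strand. It had 3665, 4870 and 5864 counts (192, 260 and 291 CPM) in the vehicle-treated LNCaP libraries, 86, 199 and 188 counts (3.97, 9.76 and 9.34 CPM) with androgen, and 63, 56 and 42 counts (2.51, 2.52 and 1.65 CPM) in PC3 cells. Every vehicle-treated library was above every other one, and the PC3 libraries were all below the androgen-treated ones, of which replicate 1 was the lowest. Means were 248 ± 50.7 CPM with vehicle, 7.69 ± 3.22 with androgen and 2.23 ± 0.498 in PC3 cells (SD, n = 3). The difference with androgen was -5.05 ± 0.22 on the log2 scale (standard error of the edgeR fit), or 33.1-fold. In bulk RNA, fewer cells with the transcript and less of it per cell cannot be told apart.

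DDC encodes aromatic L-amino acid decarboxylase, which makes dopamine and serotonin from their precursors, and spans chr7:50458436-50565405 on the minus strand. Its counts were 7010, 6823 and 7373 with vehicle (367, 364 and 366 CPM), 265, 185 and 265 with androgen (12.2, 9.07 and 13.2 CPM), and 3, 0 and 3 in PC3 cells. The groups kept apart again, in the order vehicle, androgen, PC3. The vehicle-treated libraries differed little, at 366 ± 1.46 CPM (SD, n = 3), against 11.5 ± 2.15 CPM with androgen and 0.0792 ± 0.0686 CPM in PC3 cells. The log2 difference with androgen was -5.02 ± 0.08 (32.4-fold). In PC3 cells the fitted log2 differences were -7.04 ± 0.39 against androgen-treated and -12.0 ± 0.21 against vehicle-treated LNCaP cells. They rest on PC3 libraries with no more than 3 counts, so a ratio of summed counts is given beside them. This ratio was 139 (95% counting interval 63.7 to 381) for androgen-treated LNCaP over PC3 cells and 4431 (2035 to 12075) for vehicle-treated LNCaP over PC3 cells.

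CBLN2 encodes cerebellin 2, a secreted protein that links presynaptic neurexins to postsynaptic delta glutamate receptors, and lies at chr18:72536680-72638521 on the minus strand. It had 4801, 4565 and 6023 counts with vehicle (251, 243 and 299 CPM), 143, 128 and 225 with androgen (6.61, 6.28 and 11.2 CPM) and 21, 22 and 10 in PC3 cells (0.837, 0.989 and 0.394 CPM). As for BCHE and DDC, the 3 groups did not overlap and vehicle was the highest. The log2 difference with androgen was -5.08 ± 0.14 (33.8-fold). The differences of BCHE, DDC and CBLN2 lay between -5.08 and -5.02. All were picked from among the largest falls with androgen, so nothing is read from this closeness.

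HES6 encodes a basic helix-loop-helix factor that opposes the repressor HES1 and accompanies neural differentiation, and lies at chr2:238238267-238240662 on the minus strand. Its counts were 1011, 1225 and 1202 with vehicle (52.9, 65.3 and 59.6 CPM), 12492, 13509 and 9781 with androgen (577, 662 and 486 CPM) and 111, 108 and 95 in PC3 cells (4.43, 4.86 and 3.74 CPM). Here androgen-treated libraries were the highest, vehicle-treated ones lay between, and PC3 libraries were the lowest, with no overlap. The log2 difference was -7.06 ± 0.17 in PC3 against androgen-treated LNCaP cells (134-fold) and -3.80 ± 0.13 against vehicle-treated ones (13.9-fold). Androgen against vehicle gave 3.25 ± 0.11, a direction opposite to that of BCHE, DDC and CBLN2.

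**Figure D1:**
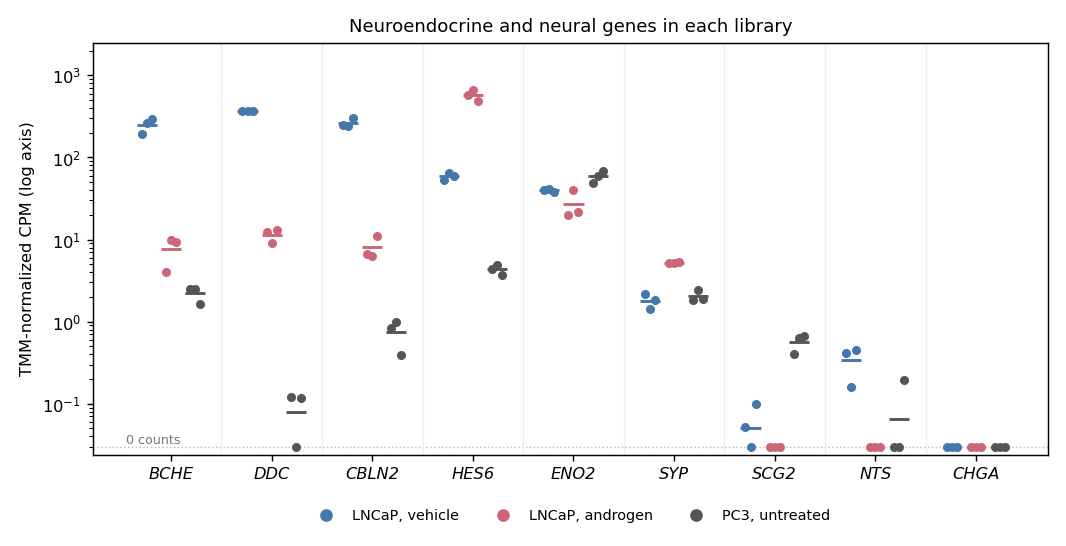
TMM-normalized CPM (log axis) of the 9 genes in each library, with blue points for vehicle-treated LNCaP, red for androgen-treated LNCaP and grey for PC3 cells, and bars at the mean of 3 libraries. Libraries with 0 counts are drawn on the dotted line. BCHE, DDC and CBLN2 lie highest with vehicle, HES6 highest with androgen, and CHGA on the dotted line in every library.

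The values that chose the members can be placed among all genes. Of the genes with over 3 CPM (before TMM scaling) in each of the 6 LNCaP libraries, UGT2B15 had the largest fall with androgen (-5.33 on the log2 scale), followed by CBLN2, BCHE and DDC. The next were ACKR3 at -4.41 and MMP16 at -4.20. In PC3 against androgen-treated LNCaP cells, HES6 was the fifth under the same condition, between CTNNA1 at -7.15 and EHF at -7.04.

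Of the remaining markers, CHGA, SCG2, NTS and SYP were low. CHGA, chromogranin A, the granule protein most used to stain neuroendocrine cells (chr14:92923150-92935285, plus strand), had 0 counts in all 9 libraries, so no fold can be given and its RNA was not detectable at this depth. SCG2, secretogranin II, another granule protein (chr2:223596940-223602361, minus strand), had 10, 14 and 17 counts in PC3 cells, 0, 0 and 0 with androgen and 1, 0 and 2 with vehicle. PC3 libraries were above every LNCaP library. Against a floor of 3 counts per library this was at least 3.90-fold higher in PC3 than in androgen-treated LNCaP cells, and the ratio to vehicle-treated cells was 10.9 (95% counting interval 3.48 to 55.0). For both, the exact permutation p (two-sided) was 0.1, the smallest that 3 against 3 libraries allow, and androgen against vehicle gave p = 0.4 by the same exact test.

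NTS, the precursor of the peptide neurotensin (chr12:85874295-85882992, plus strand), had 8, 3 and 9 counts with vehicle, 0, 0 and 0 with androgen and 0, 0 and 5 in PC3 cells. Vehicle-treated libraries did not overlap androgen-treated ones, with p = 0.1 (exact permutation test, two-sided, the smallest possible). Their mean was at least 2.36-fold higher against the same floor, though vehicle replicate 2 held only the 3 counts of that floor. The PC3 libraries overlapped both LNCaP groups, and the exact permutation p was 0.2 against vehicle-treated and 1 against androgen-treated cells.

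SYP, synaptophysin, a membrane protein of synaptic vesicles (chrX:49187815-49200218, minus strand), had 113, 107 and 106 counts with androgen (5.22, 5.25 and 5.27 CPM), 41, 27 and 37 with vehicle (2.15, 1.44 and 1.84 CPM) and 46, 54 and 48 in PC3 cells (1.83, 2.43 and 1.89 CPM). The androgen-treated libraries were above all others, and the PC3 and vehicle-treated ones overlapped. It rose with androgen by 1.50 ± 0.16 on the log2 scale (edgeR quasi-likelihood test, adjusted p = 1.63e-06) and differed by -1.37 ± 0.15 in PC3 against androgen-treated LNCaP cells (adjusted p = 5.62e-05). SYP passed the filter on low counts only through the androgen-treated group, in which it is high, so that both of its calls concern a gene that had to differ to be tested at all. PC3 against vehicle-treated cells could only be tested on its own, with p = 0.5 (exact permutation test, two-sided). Of the 74-base stretches of SYP transcripts, 0.918% also occur elsewhere, against 0% for the other 8 genes.

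ENO2, neuron-specific enolase, a glycolytic enzyme (chr12:6913745-6923698, plus strand), was well above the detection limit in every library. It had 1237, 1334 and 1714 counts in PC3 cells (49.3, 60.0 and 67.5 CPM), 433, 821 and 430 with androgen (20.0, 40.3 and 21.4 CPM) and 759, 777 and 775 with vehicle (39.7, 41.4 and 38.5 CPM). PC3 libraries were the highest, and androgen replicate 2 lay among the vehicle-treated libraries while the other two lay below them. Against androgen-treated LNCaP cells ENO2 was higher in PC3 cells by 1.10 ± 0.27 on the log2 scale (edgeR quasi-likelihood test, adjusted p = 0.00526), a call that was lost under the fold limit without PC3 replicate 3 (0.97), without androgen replicate 1 (0.92) and without androgen replicate 3 (0.96). A test against a fold change of 2 gave an adjusted p of 0.353. Against vehicle-treated cells the log2 difference was 0.54 ± 0.12 (edgeR, adjusted p = 0.00278, 0.0602 with all 9 libraries in the fit), and androgen against vehicle gave -0.58 ± 0.19 (edgeR, adjusted p = 0.0160), both under the fold change of 2 needed for a call.

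In androgen against vehicle, 6 of the 9 genes passed the filter and 5 were called (at least 2-fold apart, with an adjusted p under 0.05), while 14.0% of the 11697 genes tested were. HES6 and SYP were higher (6.54% of all genes) and BCHE, DDC and CBLN2 lower (7.49%). In PC3 against androgen-treated LNCaP cells, 6 of 6 genes tested were called, 1 higher and 5 lower, beside 46.0% of the 12541 genes tested (24.0% higher, 22.1% lower). In PC3 against vehicle-treated LNCaP cells, 4 of 5 were called, all lower, beside 43.2% of 12686 genes (21.0% lower). BCHE, DDC and CBLN2 passed the filter in both cell line comparisons only through LNCaP cells, in which they are high. Since 4 of the 9 genes were picked on these contrasts, nothing is read from these counts of calls. Of the 5 genes that were not, 1, 2 and 0 were called in the 3 comparisons, which share libraries pairwise. The call with androgen and 1 of the 2 calls against androgen-treated cells are those of SYP, which had to differ to be tested. Groups without overlap are common here, at 76.8%, 86.2% and 85.5% of the genes tested in the same order.

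**Figure D2:**
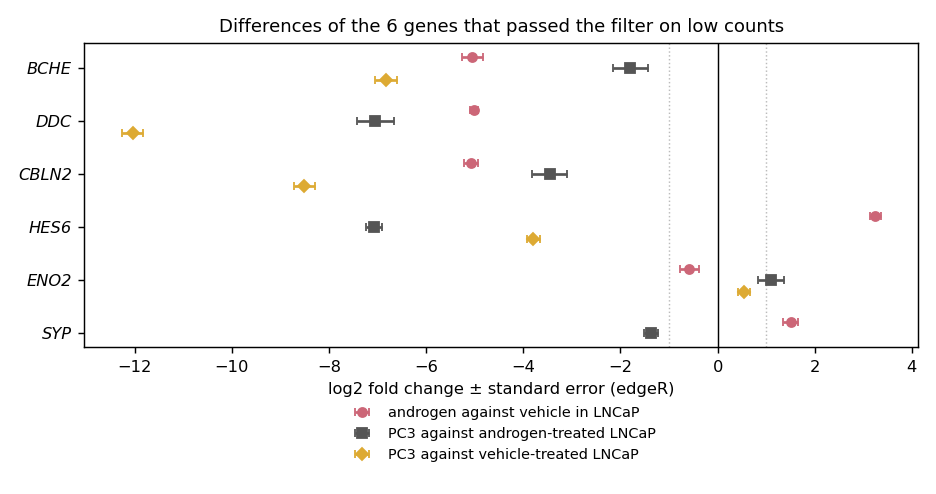
Log2 fold changes (x axis, bars are the standard error of the edgeR fit on 6 libraries) of the 6 genes that passed the filter on low counts, for androgen against vehicle (red circles), PC3 against androgen-treated LNCaP (grey squares) and PC3 against vehicle-treated LNCaP (yellow diamonds). Dotted lines mark a fold change of 2. BCHE, DDC and CBLN2, picked from among the largest falls with androgen, sit near -5 for that comparison. SYP has no point for PC3 against vehicle-treated cells, where it was not tested.

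Compared per length (CPM per kilobase of exons), DDC was the most abundant of the 9 genes with vehicle, at 119 ± 0.474, followed by BCHE at 80.6 ± 16.5, CBLN2 at 48.2 ± 5.47, HES6 at 30.3 ± 3.19 and ENO2 at 9.31 ± 0.350 (SD, n = 3), with no overlap between neighbours in this order. With androgen HES6 led at 294 ± 45.2, and ENO2 (6.36 ± 2.64), DDC (3.73 ± 0.696), BCHE (2.50 ± 1.05) and CBLN2 (1.46 ± 0.499) followed. The libraries of DDC and BCHE overlapped, as did those of BCHE and CBLN2. In PC3 cells ENO2 led at 13.8 ± 2.13, ahead of HES6 at 2.22 ± 0.288 and BCHE at 0.725 ± 0.162, and the other members were at or below 0.294 (SYP).

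The genes whose pattern over the 9 libraries was most like that of a member were found by the root mean square difference of centred log2(CPM + 0.5), over 12837 genes. For BCHE they were ACKR3 (0.43), SI (0.53) and SLITRK3 (0.62). For DDC they were UGT2B17 (0.59), UGT2B15 (0.63) and LRRN1 (0.68), and for CBLN2 they were SLITRK3 (0.24), UGT2B15 (0.39) and UGT2B17 (0.55). UGT2B15 and UGT2B17 are close copies that can share reads, so their separate values are uncertain. SLITRK3, a synaptic adhesion protein, had 99.9 CPM with vehicle, 3.28 with androgen and 0.0283 in PC3 cells. For HES6 the nearest genes were IQGAP2 (0.34), PLPP1 (0.39) and GREB1 (0.40), and GREB1 had 12.2 CPM with vehicle, 72.9 with androgen and 0.122 in PC3 cells.

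The surroundings of the 9 genes were then read from 9 lists with 170 other genes, whose counts are given as a description beside the background shares of 14.0%, 46.0% and 43.2%. Genes that passed the filter on low counts only through the group in which they are high had to differ to be tested. Not every such gene is marked below. Of the 170 genes, 21 had 0 counts in all 9 libraries and 56 had at most 3 counts in every library. The precursor CHGB and the prohormone convertase PCSK1 had at most 1 and 0 counts per library, and the transcription factors INSM1 and NEUROD1 had 0 in every library. REST, which represses neuronal genes, lay at 60.0 ± 5.68 CPM in PC3 cells, 67.6 ± 4.58 with androgen and 56.7 ± 1.53 with vehicle, and was called in no comparison (log2 differences of 0.23, -0.18 and 0.06).

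**Figure D3:**
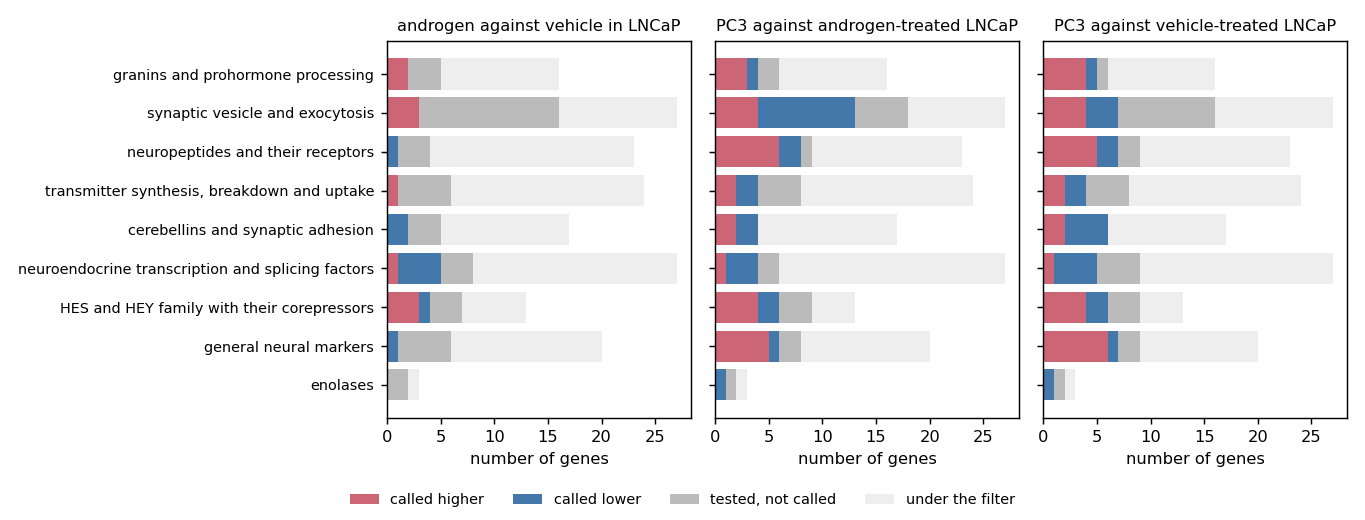
Number of genes (x axis) of each of the 9 lists that were called higher (red) or lower (blue), tested but not called (dark grey) or under the filter on low counts (light grey), with 1 panel for each comparison. Most genes of most lists stood under the filter, and the cell line comparisons had more called genes than androgen against vehicle in 8 of the 9 lists.

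Of 24 genes of transmitter synthesis, breakdown and uptake, 6 were tested for androgen and 1 was called, higher (median log2 difference 0.33, against -0.01 over all genes). It was MAOA, the monoamine oxidase that degrades serotonin and noradrenaline, with 1464 ± 72.5 CPM with androgen and 715 ± 51.0 with vehicle (1.00 ± 0.05 on the log2 scale, edgeR adjusted p = 1.41e-09), at the edge of the fold limit. In PC3 cells MAOA had 62 to 84 counts per library, and its log2 difference was -8.94 ± 0.14 against androgen-treated and -7.92 ± 0.14 against vehicle-treated LNCaP cells. In either cell line comparison 4 of 8 tested genes were called, 2 higher and 2 lower. ACHE, acetylcholinesterase, which shares its substrate with BCHE, went the other way from BCHE in PC3 cells, with 459 to 664 counts there, 24 to 59 with androgen and 13 to 16 with vehicle (log2 differences of 3.64 ± 0.29 and 4.85 ± 0.21). TH, tyrosine hydroxylase, which precedes DDC in dopamine synthesis, had 176, 126 and 203 counts in PC3 cells, 1, 0 and 0 with androgen and 0 in each vehicle-treated library. It was thus at least 44.4-fold higher in PC3 than in vehicle-treated LNCaP cells, and TH and DDC had their counts in different lines. DBH, which turns dopamine into noradrenaline, had at most 1 count.

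Of 17 cerebellins and synaptic adhesion genes, 5 were tested for androgen, 0 were called higher and 2 lower (median -0.53). NLGN1, neuroligin 1, a postsynaptic partner of neurexins, fell from 144 to 203 counts with vehicle to 19 to 33 with androgen (-2.81 ± 0.21 on the log2 scale), and it passed the filter only through the vehicle-treated group, in which it is high. LRRTM3, another neurexin ligand, had 73, 99 and 122 counts with vehicle and 0 with androgen, at least 34.9-fold lower. It likewise passed the filter only through the vehicle-treated group. CBLN1 had 0 counts in all libraries. NRXN3, of the neurexins that cerebellins bind, had 27 to 29 in PC3 cells and 2 to 9 in LNCaP cells. PC3 cells had 2 genes higher and 2 lower of 4 tested against androgen-treated cells (median 0.25), and 2 higher and 4 lower of 6 against vehicle-treated cells (median -3.91). NLGN4X, at 0 to 4 counts in PC3 cells and 97 to 144 in LNCaP cells, was lower in both, and NLGN2 was higher in both (1.65 ± 0.11 and 1.14 ± 0.09).

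Around HES6, 4 of 7 tested genes of the HES and HEY family with their corepressors were called with androgen, 3 higher and 1 lower (median 0.71). HES1, which HES6 opposes, rose by 1.35 ± 0.12 on the log2 scale (edgeR adjusted p = 3.66e-07), HES2 by 2.11 ± 0.15, and the Groucho corepressor TLE1 by 1.27 ± 0.06, whereas TLE3 fell by 1.29. HES2 passed the filter only through the androgen-treated group, in which it is high. In PC3 cells 4 of 9 were higher and 2 lower against either LNCaP group. HES1 was higher there, with 813 to 1232 counts against 213 to 257 with androgen and 71 to 97 with vehicle (1.90 ± 0.18 and 3.27 ± 0.21), so that HES1 and HES6 differed in opposite directions between the lines. HEY1 had 2494 to 4417 counts in PC3 cells and 20 to 44 in LNCaP cells (6.50 ± 0.26 and 6.49 ± 0.26), and TLE4 was higher in PC3 than in androgen-treated LNCaP cells by 5.46 ± 0.17. Vehicle-treated libraries held at most 3 TLE4 counts, and the ratio of PC3 to them was 209 (95% counting interval 95.7 to 570).

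**Figure D4:**
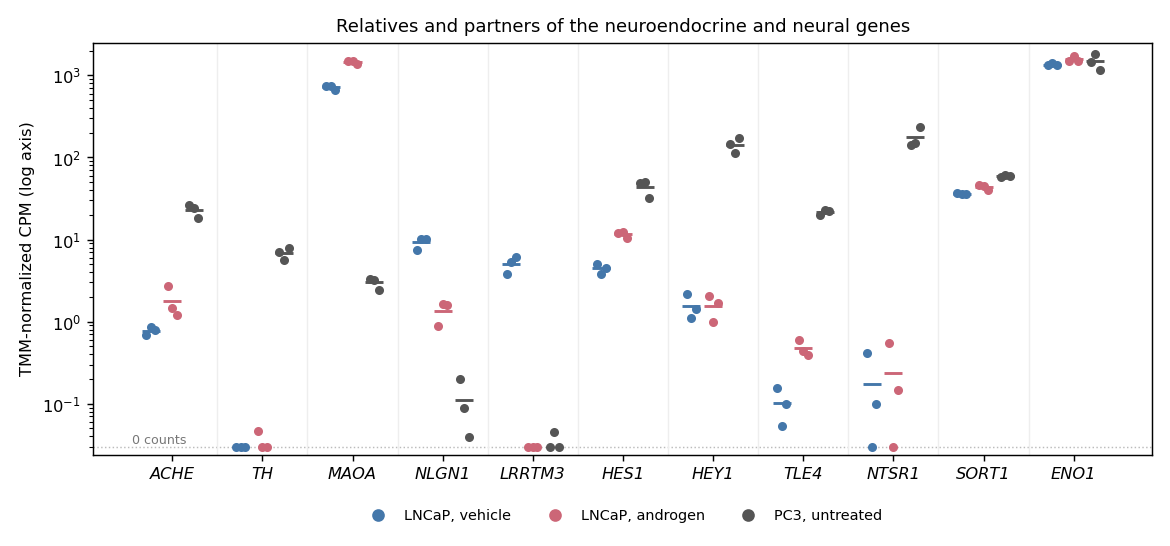
TMM-normalized CPM (log axis) of 11 relatives and partners of the 9 genes in each library, with blue points for vehicle-treated LNCaP, red for androgen-treated LNCaP and grey for PC3 cells, and bars at the mean of 3 libraries. Libraries with 0 counts are drawn on the dotted line. ACHE, TH, HES1, HEY1, TLE4 and NTSR1 lie highest in PC3 cells, MAOA, NLGN1 and LRRTM3 in LNCaP cells, and ENO1 differs little.

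Among 16 granin and prohormone processing genes beside CHGA and SCG2, 5 were tested for androgen, with 2 higher and 0 lower (median 0.40). They were CADPS2, which primes dense-core granules for release (2.69 ± 0.09), and PTPRN2, a protein of the granule membrane (2.45 ± 0.13). PC3 cells had 3 higher and 1 lower of 6 tested against androgen-treated cells (median 0.77), and 4 higher and 1 lower of 6 against vehicle-treated cells (median 2.26). PAM, which amidates peptide hormones, was the furthest apart, at 160 ± 7.88 CPM in PC3 cells, 2.41 ± 0.804 with androgen and 3.11 ± 0.542 with vehicle. VGF, a granin-like precursor, had 158 to 300 counts in PC3 cells, 54 to 69 with androgen and 7 to 16 with vehicle.

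Of 27 genes of synaptic vesicles and exocytosis beside SYP, 16 were tested for androgen, with 3 higher and 0 lower (median 0.34). They were RAB3B (2.19 ± 0.07) and UNC13A (2.42 ± 0.18), which act in vesicle docking and priming, and SYNGR3 (2.12 ± 0.12), a vesicle protein related to SYP. UNC13A passed the filter only through the androgen-treated group, in which it is high, and SYNGR3 also needed that group to pass. SYPL1, the nearest relative of SYP on the list, had 2784 to 4797 counts in all libraries and was called in no comparison. In PC3 cells 4 genes were higher and 9 lower of 18 tested against androgen-treated cells (median -1.16), and 4 higher and 3 lower of 16 against vehicle-treated cells (median -0.58). SYT1, the calcium sensor of fast release, had 688 to 1320 counts in PC3 cells and at most 12 in LNCaP cells. SYT4, another synaptotagmin, had 0 counts in PC3 cells and 1837 to 2191 in LNCaP cells, at least 730-fold and 887-fold lower than with androgen and vehicle.

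Of 23 neuropeptides and their receptors, 4 were tested for androgen with 0 higher and 1 lower (median -0.08), and this was NMU, neuromedin U, with 57 to 67 counts with androgen and 291 to 335 with vehicle (-2.46 ± 0.11). NMU needed the vehicle-treated group, in which it is high, to pass the filter. PC3 cells had 6 higher and 2 lower of 9 against androgen-treated cells (median 2.82) and 5 higher and 2 lower of 9 against vehicle-treated cells (median 2.32). NTSR1, the receptor of neurotensin, had 3559, 3371 and 5890 counts in PC3 cells, 12, 0 and 3 with androgen and 8, 0 and 2 with vehicle, so the receptor was abundant in the line in which NTS itself had 0 to 5 counts. SORT1, sortilin, which also binds neurotensin, had log2 differences of 0.25, 0.44 and 0.71 in androgen against vehicle, PC3 against androgen-treated and PC3 against vehicle-treated cells, none of them called. NPY1R and GRPR, receptors of neuropeptide Y and gastrin-releasing peptide, had 3967 to 5358 and 2456 to 2945 counts in PC3 cells and at most 35 and 53 in LNCaP cells. The 2 lower genes were VIPR1 and GAL in either comparison. VIPR1 differed by -6.77 ± 0.20 against androgen-treated and -6.62 ± 0.20 against vehicle-treated cells, and GAL by -3.95 ± 0.19 and -4.22 ± 0.17.

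Of 27 neuroendocrine transcription and splicing factors, 8 were tested for androgen, with 1 higher and 4 lower (median -0.70). MYCL rose by 1.52 ± 0.12, and MYT1 (-1.36), RCOR2 (-1.23), SOX11 (-1.04) and LHX2 (-1.02 on the log2 scale) fell. RCOR2 and SOX11 passed the filter only through the vehicle-treated group, in which they are high, as did the neural marker DPYSL3 below. PC3 cells had 1 higher and 3 lower of 6 against androgen-treated cells (median -0.74), and 1 higher and 4 lower of 9 against vehicle-treated cells (median -0.93). The higher one was FOXA2, with 1665, 1779 and 1804 counts in PC3 cells, 17, 0 and 0 with androgen and 4, 0 and 0 with vehicle. Of 20 general neural markers, 6 were tested for androgen, 0 were higher and 1 was lower (DPYSL3, -1.02 ± 0.21, median -0.36), whereas PC3 cells had 5 higher and 1 lower of 8 against androgen-treated (median 2.98) and 6 higher and 1 lower of 9 against vehicle-treated cells (median 2.65). The intermediate filament genes NES and NEFL had 192 ± 23.8 and 345 ± 66.9 CPM in PC3 cells and at most 1.75 and 6.14 CPM on average in an LNCaP group. Of the 3 genes on the enolase list 2 were tested. ENO1, the common enolase, had 1480 ± 340 CPM in PC3 cells, 1561 ± 144 with androgen and 1352 ± 48.9 with vehicle and was called in no comparison, and ENO3, the muscle enolase, was lower in PC3 cells (-1.89 ± 0.11 and -1.90 ± 0.11) but not called with androgen.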

How the data were processed

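Poly(A) RNA of 3 PC3, 3 androgen-treated and 3 vehicle-treated LNCaP libraries was sequenced as 74-base single-end reads. Per the submitters' processing notes, adapters were trimmed with cutadapt 4.1, reads were aligned to GRCh38 with STAR 2.7.7a and PCR duplicates were removed with UMI-tools 1.1.2. The authors deposited counts, raw whole reads for each of 28216 genes and each library. All its 253944 values equalled the same-strand column of the STAR output, the opposite strand held at most 3.06% of the reads on genes, and 20.3% to 25.4% of reads were on no gene. Columns left out numbered 0.

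Libraries held 17397706 to 25640325 counts, and a gene at 0 can be as high as 3 counts. Genes with over 3 CPM in at least 3 of the 6 libraries of a comparison were fitted with edgeR 4.0.16 (R 4.3.3): TMM scaling, quasi-likelihood test, Benjamini-Hochberg adjustment over all genes tested, called where genes were at least 2-fold apart with adjusted p under 0.05. The study used a likelihood ratio test with a batch term whose batches its text does not name, so the block was an alternative here. Genes under the filter were compared by exact permutation tests. The fits were tested on simulated data. Gene locations and exon lengths are from GENCODE 44.

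Deviations from the group means in LNCaP cells correlated between same-numbered libraries (0.17, 0.23 and 0.21 over 10910 genes, at most 0.086 otherwise). The numbers may thus pair androgen and vehicle libraries. The main fits and the exact permutation tests left this possible pairing out, so the p-values for androgen against vehicle above ignore it. Only the fits with the replicate block took it into account, and they changed no call of a member. The labels do not give this pairing. Same-numbered PC3 and LNCaP libraries correlated by at most 0.0751. Differently numbered ones reached 0.219 (PC3 replicate 3 with androgen replicate 1). Values of this size thus also occurred without a shared number, and the pairing remains uncertain.

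The 9 genes and the lists were chosen with earlier results of these data known. Named were all 9 members, their closest relatives, partners and regulators whatever their values, up to 4 called genes of each list and comparison with the largest fold change, and the 3 genes most like each of BCHE, DDC, CBLN2 and HES6. Some genes that this rule covers are not reported here, and the counts over lists include them. Alternatives were DESeq2 1.42.0 (size factors or Wald test), the likelihood ratio test, the replicate block, other filters and thresholds, unstranded counts, 1 fit on all 9 libraries and leaving out each library.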

Additional observations from a re-analysis of the deposited data

How the results depend on the processing

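The number of members called stayed within 1.5 times in 51 of 51 alternatives, and the log2 differences of the members kept direction and side of the threshold in 281 of 287. These shares say little about stability. BCHE, DDC, CBLN2 and HES6 were picked for large differences, and SYP had to differ to be tested. With so few genes, a band of 1.5 times also hides the gain or loss of a single call. The 6 exceptions all concern ENO2: without the fold limit it was also called in androgen against vehicle (-0.58) and in PC3 against vehicle-treated cells (0.54), and in PC3 against androgen-treated cells the call was lost in 4 settings, namely the test against a fold change of 2 and the 3 left-out libraries named above (0.92 to 0.97). Leaving out each library gave 5, 5 to 6 and 4 members called in androgen against vehicle, PC3 against androgen-treated and PC3 against vehicle-treated cells. Over all genes, 1641, 5773 and 5485 calls in that order became 2941, 9147 and 8713 with no filter on low counts, where 20429, 21303 and 21238 genes were tested, and 8763, 10530 and 10577 with the adjusted p alone. The fit with the replicate block changed no call of a member (SYP 1.50, ENO2 -0.62 with androgen) and kept all counts within 1.5 times. Of the counts in single lists, 46 of 459 moved by more, most with other filters or thresholds. The median log2 difference over all genes moved by less than 0.1 between scalings. Depth limits what can be said of CHGA, SCG2, NTS and the 56 list genes with at most 3 counts in every library.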
